A study of Neurospora discreta with 48 samples.

Results

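Neurospora discreta is a filamentous ascomycete, a relative of the bread mould Neurospora crassa. The authors' deposited table covers 9280 genes, of which 6148 had a mean of at least 100 normalized counts over the 2 strains compared, and 111 of those are described here (1.81% of the 6148). These 111 genes were selected on measured values. Their average expression over libraries, as the edgeR columns give it in log2 CPM, reads scaled to the library total, exceeded their level in the compared libraries by at least 0.6 in log2, the smallest excess being 1.52-fold. They are called excess genes below. The excess is the edgeR average minus the log2 of the DESeq mean, centred on the median of that difference over the 6148 genes. Because the rule used these values, the size of the excess is a description and has no test. Which libraries entered the edgeR average is not stated in the sources used here, so no strain or time can be given for the higher values.

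The study sequenced total RNA of mycelial pads, labelled as mycelia and conidia, in 48 libraries: 4 strains at 4 times, with 3 replicates each. The table compares both parents, sampled 15 min into the light phase: FGSC8831, an African isolate labelled high RI, and FGSC8578, a North American isolate labelled low RI. The progeny of these parents, N309-89 (high RI) and N309-50 (low RI), and the samples at 1 h and 2 h of light and in the dark (2DK), have no values of their own in the table. All pads grew at 25 °C in low-glucose medium under a day split into 12 h light and 12 h dark, and no genotype beyond the strain or treatment beyond the light cycle is named. The table calls its arms A and B without naming the strains. The strain order in its name would put FGSC8578 in A, but no column states it, so directions are given here as A and B only. Over all genes the arm means added up to 9331506 (A) and 10507386 (B) normalized counts, and the excess genes made up 1.60% and 0.938% of these sums. The table holds 1 mean per arm and no value per library, so values carry no SD, and nothing says whether replicates were separate cultures. The p-values may therefore measure technical spread only.

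In Neurospora, studied mostly in N. crassa, the circadian clock rests on a feedback loop in which the FRQ protein inhibits its own activators, the White Collar proteins WC-1 and WC-2. WC-1 is also a blue-light receptor, so light sets the clock and at the same time switches many genes on within minutes. Conidia, the asexual spores that mycelium forms in light and air, have transcripts of their own, and a library of a mycelial pad with spores mixes both. None of the 18 names listed for this work, which cover clock, light, conidiation and sexual tissue genes, matched an entry of the table, and the table pairs no ID with a function. The labelled tissue could thus not be checked against markers, and genes are given by position on the authors' assembly, whose build is not given in the sources used here.

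The distribution of the excess had a long tail on 1 side. Across the 6148 genes the centred difference had an SD of 0.277 in log2, and its quartiles lay at -0.15 and 0.15. The largest excess was 5.83, whereas no gene fell short of the centre by more than 0.99. On the excess side 111 genes passed 0.6, of which 28 passed 1 and 7 passed 2, and 80 genes lay as far on the opposite side. The median excess of the 111 genes was 0.74, or 1.67-fold. Just inside the limit lay genes on scaffold 16 (178071 to 180230), scaffold 2 (877175 to 879398) and scaffold 15 (467213 to 469823), at centred offsets of -0.603, -0.611 and -0.615. Just outside were genes on scaffold 1 (1459419 to 1460235) and on scaffold 5 (1199136 to 1200662 and 125112 to 126976), at -0.594, -0.593 and -0.589. There is no gap in values at the limit.

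**Figure D1:**
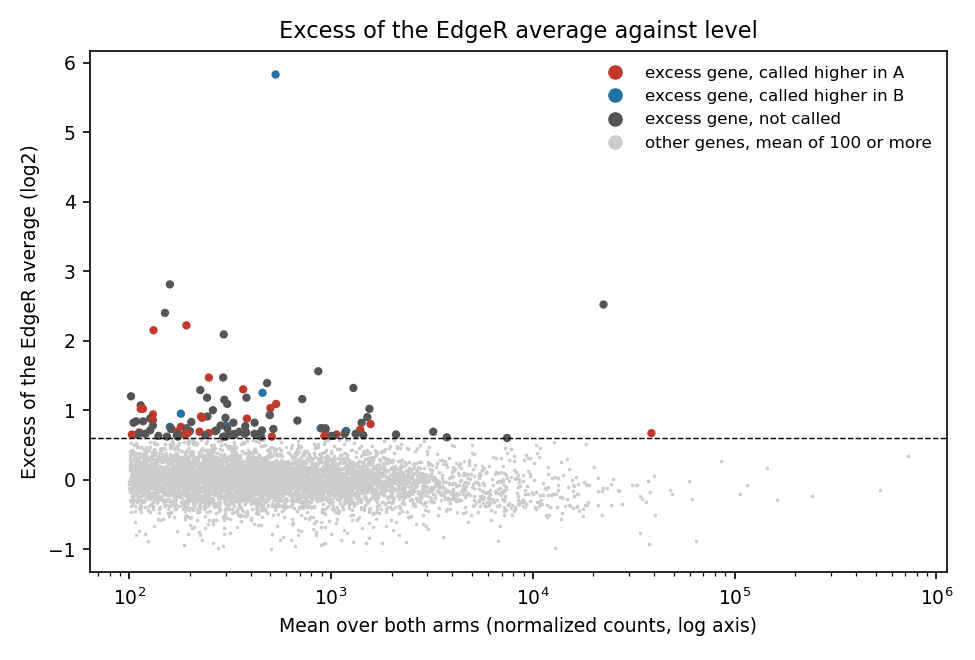
Each point is 1 of the 6148 genes, plotted by its mean over both arms (log axis) and by the excess of the edgeR average (log2), with the limit of 0.6 as a dashed line. Excess genes lie at every level up to 38743 normalized counts, and 1 gene stands alone at an excess of 5.83.

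The excess genes were expressed at a moderate level. Their median over both arms was 300.4 normalized counts, against 459 for all 6148 genes, and 36 of the 111 (32.4%) had means between 100 and 200, against 20.3% of the 6148. At the upper end, 20 excess genes (18.0%) had a mean of 1000 or more, compared with 26.0% of the 6148. In the arms, their medians were 349.8 (A) and 237 (B) normalized counts, while the 6148 genes had medians of 443 and 452. Counts are not scaled by gene length, so these levels compare groups of genes only loosely. The rule also favours genes whose mean is low beside the edgeR average. The lower levels of the excess genes are thus tied to the rule, and nothing is read from them.

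To set the edgeR average beside the arms, it was put on the scale of normalized counts with the median difference of the 6148 genes. On that scale it lay above both arm means in 104 of the 111 excess genes (93.7%), at a median of 1.39 times the higher arm. Among all 6148 genes it did so in 21.8%. For a gene with equal or moderately unequal arms the rule itself fixes this, so nothing is read from the count. The other 7 genes had averages between their arms, and all 7 were called higher in A. Under the rule an average can lie below the higher arm only where the arms are far apart, here 5.11-fold to 228-fold. That these 7 genes were called thus largely follows from the rule, and nothing is read from it. In 14 excess genes the average reached at least 2 times the higher arm.

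The gene farthest from the compared level was estExt_Genewise1Plus.C_21207 (scaffold 2, 2251128 to 2252899, minus strand). The authors' deposited table gives it 13.6 normalized counts for A against 1048 for B, 77.1-fold higher in B. Its edgeR average corresponded to 30229 normalized counts, 28.9 times the higher arm. DESeq listed its adjusted p at 0 to 4 decimals in the authors' deposited table, and the edgeR likelihood ratio gives an adjusted p of 2.39e-05. The gene is therefore at once strongly unequal between the arms and far lower in both than in the average.

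The next places were held by a pair of genes near the start of scaffold 14. A model of 310 bp (13161 to 13470) stood at 145 for A against 174 for B (authors' deposited table), with an average worth 1117 normalized counts, an excess of 2.81. Its neighbour (19524 to 22003) is among the abundant transcripts, at 20432 for A against 24407 for B (authors' deposited table). The average of that gene was worth 128692 normalized counts, an excess of 2.52. Neither gene was called different between the arms, where the authors' deposited table lists DESeq adjusted p-values of 0.743 and 0.896. A large excess thus also occurred in genes with no call between the parents.

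After them came the longest gene model among the 6148 genes, 17659 bp on scaffold 4 (470347 to 488005). It had 160.4 normalized counts for A against 140.4 for B (authors' deposited table) and an excess of 2.40. The next genes in this order were low in B. The gene fgenesh3_kg.1__593__7_65_CCSY (scaffold 1, 4006083 to 4007172) had 349.8 for A against 34.3 for B (authors' deposited table), 10.2-fold lower in B, with an average worth 895. A gene on scaffold 6 (955523 to 958607) had 242 for A against 21.7 for B (authors' deposited table), 11.2-fold lower in B, with an average worth 585. For these genes the average was 2.56 and 2.41 times the higher arm.

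The remaining places among the first 10 lay on scaffolds 17, 15 and 8. On scaffold 17, the gene at 332838 to 334361 had 218 for A against 369.9 for B (authors' deposited table) and an excess of 2.09. The gene next to it on that scaffold (329619 to 331921), with 203 for A against 380.5 for B (authors' deposited table), had an excess of 1.47. Both were a little higher in B without a call, the DESeq adjusted p-values listed by the authors' deposited table being 0.267 and 0.121. The scaffold 15 gene at 547567 to 549098 had 1098 for A against 632 for B (authors' deposited table) and an excess of 1.56. The scaffold 8 gene at 1116534 to 1123469 had 461 for A against 34.7 for B (authors' deposited table), also with an excess of 1.47, and was called 13.3-fold lower in B. Of the first 10 genes, then, the arms of some were nearly equal and those of others far apart.

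**Figure D2:**
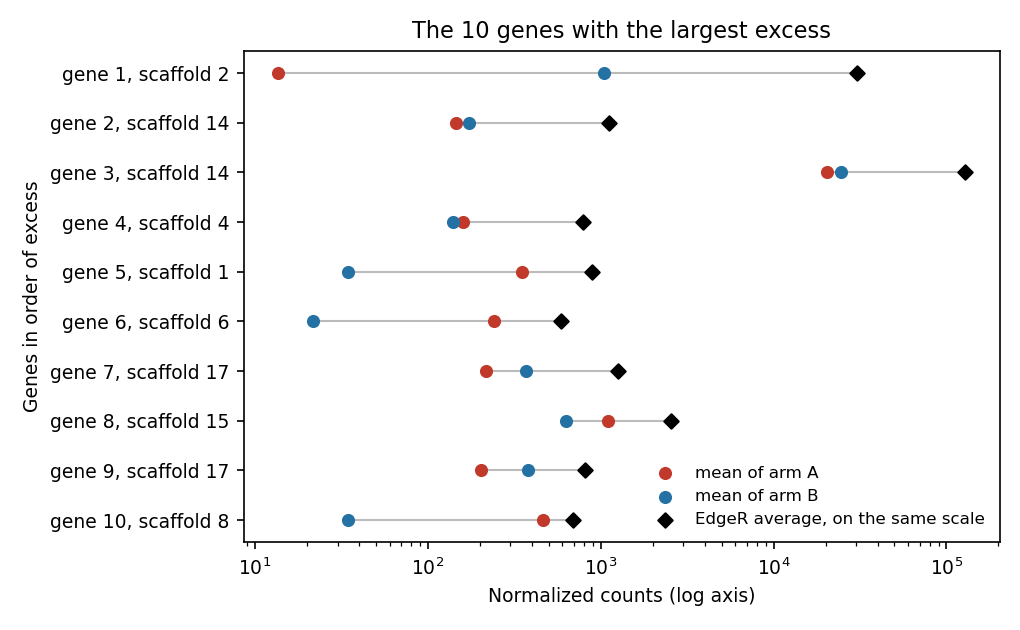
For the 10 genes with the largest excess, the points give the mean of arm A, the mean of arm B and the edgeR average on the same scale of normalized counts (log axis). The average lies to the right of both arms in every one of them, from 1.49 to 28.9 times the higher arm.

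The most abundant excess genes lay mostly near the limit, as did the excess genes as a whole. Of all 111, 83 had centred offsets from -1 to -0.6. The highest mean belonged to a gene on scaffold 4 (2264111 to 2265680) with 64814 normalized counts for A against 12673 for B (authors' deposited table). It was called 5.11-fold lower in B, and the authors' deposited table lists adjusted p-values of 0.0239 from DESeq and 0.0007 from edgeR; the former does not pass 0.01. Its excess was 0.67, and its average, worth 61707 normalized counts, stayed under the mean of A. Below it and the scaffold 14 gene came the scaffold 16 and scaffold 2 genes just inside the limit, at means of 7459 and 3751.

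The other 6 of the 10 most abundant genes had means from 1446 to 3211 and excesses from 0.64 to 1.02. They were genes on scaffold 5 (260776 to 266731), scaffold 17 (204084 to 206531), scaffold 18 (270772 to 271417), scaffold 2 (781021 to 785518), scaffold 4 (1026089 to 1027867) and scaffold 3 (1074818 to 1078145). Only the scaffold 18 gene was called among them, at 2172 for A against 968 for B and a DESeq adjusted p of 0.0266 (authors' deposited table). Its edgeR adjusted p, 0.0553 by the authors' deposited table, missed the threshold. On scaffold 2 the arms stood at 1987 and 1116 in the authors' deposited table, with an average worth 3143, 1.58 times the higher arm. Of the 10 most abundant genes, the scaffold 14 gene alone had an excess above 1.02.

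The comparison of the parents called 35 of the 111 excess genes (31.5%) different at a DESeq adjusted p under 0.05, against 14.8% of the 6148 genes and 15.0% of all 9280. Of the 35 genes, 28 (80.0%) were higher in A and 7 higher in B. Over the 6148 genes, 6.72% were called higher in A and 8.10% higher in B, so that 45.3% of the calls were higher in A. The rule used the mean over the same libraries, which ties it to the difference between arms: 7 excess genes entered with averages below their higher arm. These shares and the folds below are therefore set side by side as a description, and nothing is read from them. The median log2 fold change, B over A, was -0.27 for the excess genes and 0.09 for the 6148. Differences were also larger: 42 of the 111 genes (37.8%) were at least 2-fold apart, compared with 18.0% of the 6148, and 17 (15.3%) at least 4-fold, compared with 4.51%. Of those 17 genes, 16 were lower in B. In contrast, 40 excess genes (36.0%) differed by less than 0.5 in log2, against 55.9% of the 6148.

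**Figure D3:**
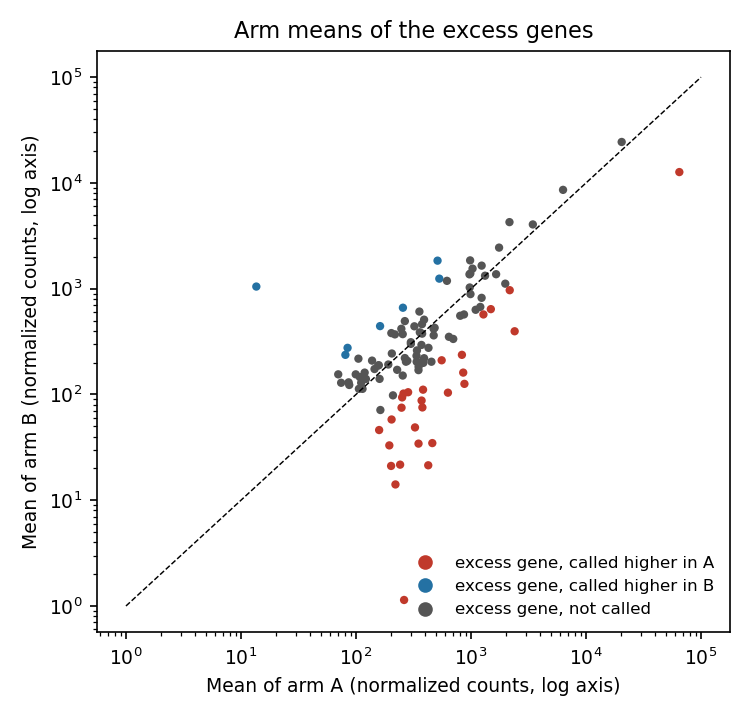
Each point is an excess gene, plotted by its mean in arm A and in arm B (normalized counts, log axes), with equal arms as a dashed line and colours for the DESeq calls at an adjusted p under 0.05. The 28 genes called higher in A lie below the line and the 7 called higher in B above it, while most of the others lie along it.

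Among the 28 genes higher in A, the folds ran from 2.24 to 228, with a median of 2.34 in log2. The widest difference was that of estExt_fgenesh3_pm.C_40295 (scaffold 4, 1342351 to 1343146), at 262 normalized counts for A against 1.14 for B (authors' deposited table). The B value is worth 3 counts over the libraries of that arm. The ratio of 228 therefore has a 95% counting interval from 78.2 to 1108 for the B counts alone. The average of this gene, worth 238, was close to its mean in A. A gene on scaffold 12 (971106 to 972923) followed with 425 for A against 21.4 for B (authors' deposited table), 19.9-fold lower in B, with an average worth 359.6.

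A scaffold 17 gene (226384 to 227728) had 220.4 for A against 14.1 for B (authors' deposited table), 15.6-fold lower in B, with an average worth 237. The scaffold 8 and scaffold 6 genes already described complete the 5 largest folds in this direction. All 5 stand at 0, to 4 decimals, in both adjusted p columns of the authors' deposited table. In 3 of the 5 the average lay above the higher arm, and in 2 below it.

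The 7 genes higher in B had folds from 2.35 to 77.1, with a median of 1.55 in log2. Behind the scaffold 2 gene with the largest excess came a scaffold 8 gene (402031 to 404220) with 512 for A against 1842 for B (authors' deposited table), 3.60-fold higher in B. A gene on scaffold 5 (1562228 to 1563820) had 84.5 for A against 276 for B (authors' deposited table), 3.27-fold higher in B. Another on scaffold 1 (375594 to 376940) had 80.9 and 237 in the authors' deposited table, 2.93-fold higher. The scaffold 9 gene at 1229871 to 1232316, with 162 and 443, was 2.74-fold higher in the authors' deposited table; DESeq listed it there at an adjusted p of 0.0016 and edgeR at 0.0635. For these 4 genes the average was 1.03 to 1.26 times the mean of B. After the scaffold 2 gene, the largest excess in this direction was 1.25, that of estExt_Genewise1.C_90011 (scaffold 9, 20272 to 21925), with 256 for A against 661 for B (authors' deposited table) and a DESeq adjusted p of 0.011.

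By its edgeR columns, the authors' deposited table called 40 of the 111 genes (36.0%), 33 higher in A and 7 higher in B, against 20.1% of the 6148. Both tools called 33 genes, DESeq alone 2 and edgeR alone 7. The log2 fold changes of the tools differed by at most 0.03 in any excess gene. Over the 6148 genes, where neither arm was at 0, they differed by at most 0.67. Both tools compared the same arms, so nothing about the excess is read from this closeness.

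The share of genes called between the parents was lowest at the centre of the offset and higher on both sides. It was 9.24% of 1926 genes with a centred offset from -0.2 to 0 and 12.3% of 1919 genes from 0 to 0.2. On the side of the excess it was 15.9% of 220 genes from -0.6 to -0.4, 30.1% of 83 genes from -1 to -0.6 and 35.7% of 28 genes at -1 or less. On the other side it was 46.0% of 200 genes from 0.4 to 0.6 and 86.2% of 80 genes above 0.6. The directions differed too: among called genes, 28 of 35 excess genes were higher in A, whereas above 0.6 there were 35 higher in A and 34 higher in B. That difference between the sides was not tested, since the offset chose both groups. The offset is itself tied to the difference between arms, so nothing is read from the shares by class.

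**Figure D4:**
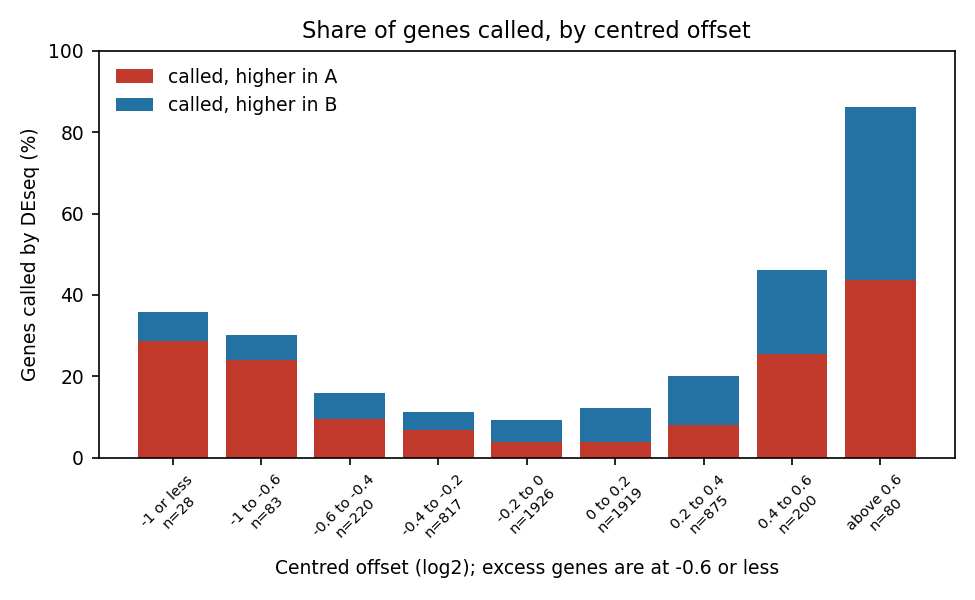
Bars give the share of genes called by DESeq at an adjusted p under 0.05 in 9 classes of centred offset (log2), split by direction, with the number of genes under each bar. The excess genes form the classes at -1 or less and from -1 to -0.6, where most calls were higher in A.

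Excess genes next to each other on a scaffold formed 7 pairs, which held 14 of the 111 genes, and no run was longer. Of the 7 pairs, 3 were divergent, with starts facing each other, 3 were convergent and 1 lay on the same strand. Among all 9216 neighbouring pairs, 27.1% were divergent and 27.1% convergent. The divergent pairs were the scaffold 17 pair, 916 bases apart, a scaffold 15 pair, 701 bases apart, and a scaffold 8 pair, 1663 bases apart. On scaffold 8, the minus-strand gene (119739 to 121578) had 869.5 for A against 571 for B (authors' deposited table), and the plus-strand gene (123242 to 126711) had 1032 and 1549. Their excesses were 1.16 and 1.32, although the arms leaned in opposite directions. On scaffold 15 the partner of the gene in the first 10 (549800 to 550206, 407 bp) had 86.3 for A against 130.2 for B (authors' deposited table), with an excess of 0.84. None of these 6 genes was called by DESeq.

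Beside the scaffold 14 genes, 6053 bases apart, the convergent pairs were on scaffolds 3 and 11. On scaffold 3, the gene at 818699 to 822667 had 453 for A against 204 for B (authors' deposited table), and its neighbour at 823189 to 825353 had 159 and 46.1. DESeq called only the latter, which the authors' deposited table lists at an adjusted p of 0.0023, while edgeR called both, the former at 0.0241. On scaffold 11, a gene of 7808 bp (980577 to 988384) with 266 and 221 lay beside one (989473 to 991788) with 372 for A against 87.6 for B (authors' deposited table), 4.24-fold lower in B. Their excesses were 1.18 and 0.89. The same-strand pair joined the 17659 bp model on scaffold 4 with a model of 13599 bp (456353 to 469951), 395 bases away, at 618 for A against 1187 for B (authors' deposited table) and with an excess of 0.74.

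Genes that flanked an excess gene, without being one, leaned the same way. Of 202 such flanking genes, 71 (35.1%) had means under 100, about the 33.8% of the whole table. The other 131 had a median centred offset of -0.09, and 79 of them (60.3%) lay below 0. Of the 5906 genes of that level that neither were nor flanked an excess gene, 48.8% lay below 0. An offset of -0.4 or less was found in 11.5% of the flanking genes and in 3.47% of those 5906. Reads of neighbouring or overlapping models could be counted together, and the strand setting of the counting is not given in the sources used here; its part in this was not tested. Of the 111 excess genes, 5 (4.50%) had a model that overlapped another, against 6.28% of the 6148.

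The excess genes lay on 19 of the 64 scaffolds. Scaffold 17 held 9 of them among its 51 genes that reached a mean of 100 (17.6%). On the other 19 scaffolds with at least 40 such genes the share ran from 0 to 4.23%, the latter on scaffold 11 with 9 of 213. Scaffolds 3 and 4 held 15 each, 2.34% and 2.88% of their genes, whereas scaffold 1, with 870 genes of that level, held 4 (0.460%). Without scaffold 17, the share over all scaffolds was 1.67%.

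On scaffold 17 the excess was not limited to the excess genes. The median centred offset of its 51 genes was -0.20, while the medians of the other scaffolds of that size ran from -0.08 to 0.08, and 38 of the 51 genes (74.5%) lay below 0. Its 42 other genes had a median of -0.12. Between 329619 and 412510, a stretch of 82.9 kb, 6 of the 13 genes that reached a mean of 100 were excess genes. The stretch was cut at its outermost excess genes, which raises this share, so nothing is read from it. Of the 9 excess genes on the scaffold, 2 were called between the parents, both higher in A: the gene at 226384 to 227728 and a gene at 402473 to 405751, with 877 for A against 126 for B (authors' deposited table), 6.97-fold lower in B. Over the whole scaffold, low genes included, 24 of 108 genes were called, against 15.0% of all 9280 genes. Among the 6148 genes the share was 14.8%, and nothing particular is read from the 2 calls. The scaffold was picked out after its values had been seen, and its share was not tested.

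**Figure D5:**
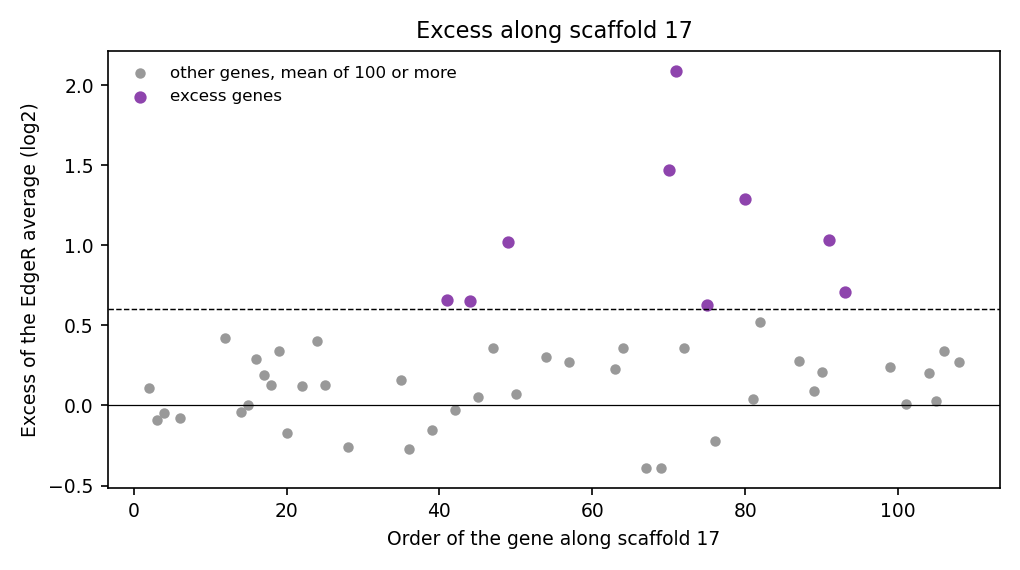
Each point is 1 of the 51 genes of scaffold 17 that reached a mean of 100 normalized counts, plotted by its order along the scaffold and by the excess of the edgeR average (log2), with the limit of 0.6 dashed. The 9 excess genes lie in the middle and later part of the scaffold, and 38 of the 51 genes lie above 0.

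Long gene models were more common among the excess genes. Models of 5000 bp or more made up 15 of the 111 (13.5%), against 3.85% of the 6148, and 6.33% of such long models were excess genes, against 1.62% of shorter ones. These 15 genes spanned 5432 to 17659 bp, had means from 105 to 3211 normalized counts and a median excess of 0.78. DESeq called 2 of the 15, a share near the 14.8% of the 6148. The 237 long models of that level had a median centred offset of -0.12. Their median mean of 464 was close to the 459 of all 6148 genes. At the short end, 7 excess genes (6.31%) were under 600 bp, against 2.98%, with means from 108 to 332. The median length was 2165 bp, against 2006 bp. Whether length itself bears on the excess was not tested.

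In other features the excess genes were within a few percentage points of the 6148. They lay on the minus strand in 62 of 111 cases (55.9%), against 50.3% of the 6148. Within 50000 bases of the first base of a scaffold or of the end of its last gene model lay 6 (5.41%), against 8.39%. By the predictor named in the ID, 56.8% were fgenesh models and 38.7% Genewise models, against 51.4% and 44.1%. No sequence of these genes was in the files used here, so none is shown.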

How the data were processed

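RNA of N. discreta was sequenced and processed by the authors. The submitters' processing notes name cutadapt 1.3, FastQC 0.11.4, HTSeq, TopHat2 2.1.1, SAMtools, DESeq and edgeR, with no role for any; the sources used here give no build, annotation or strand setting. The authors deposited 1 comparison table of 9280 genes. Per the file headers, its DESeq columns are mean signals (normalized counts) over both arms and for each arm, their fold ratio, and raw and adjusted p-values. Its edgeR columns, also per the file headers, are a log2 fold change, an average on the log2 CPM scale, a likelihood ratio (a score), and raw and adjusted p-values. The DESeq log2 column that the authors deposited holds spreadsheet errors, so log2 of the arm means, B over A, was used.

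Excess was computed as described at the start of the report. An average was put on the scale of the arms by adding the median difference, 3.29 in log2, to the log2 CPM. Calls are the authors' DESeq adjusted p-values under 0.05. No count model was fitted here, since the table holds no counts per library, so the planned edgeR fit was not run and the authors' statistics were used. Where the authors' edgeR value is listed as 0, adjusted p from likelihood ratios used 1 degree of freedom and Benjamini-Hochberg adjustment over all genes. Low means of B were decomposed into whole multiples of 3 worths of a count, 0.291, 0.375 and 0.385, which matched 96 of 97 distinct values under 3 to within 0.0004; the interval is exact Poisson at 95% and covers counting error only. Depth per library is unknown.

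The excess genes, the lists and the rules were chosen with earlier results of these data known. Named genes are the 10 with the largest excess, the 10 with the highest mean, the 5 largest folds called in each direction, the neighbouring pairs and the genes beside the limit. Beyond these, the scaffold 9 gene at 20272 and the scaffold 17 gene at 402473 were named after their values were seen. Python 3.11.15, numpy 2.4.6, pandas 2.3.3, scipy 1.17.1 and matplotlib 3.10.9 were used, and the code was tested on simulated data.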

Additional observations from a re-analysis of the deposited data

How the results depend on the processing

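No paired analysis was possible because only arm means were at hand, without replicate numbers; leaving out replicates was not run for the same reason. The 111 excess genes became 177, 48 and 28 at offset limits of -0.5, -0.8 and -1, since the limit cuts a continuous range, and from 77 to 149 under other level minimums, centrings and overlap rules. The 35 calls fell to 17 at 4-fold (16 higher in A, 1 in B), to 17 at the limit of -0.8 (14 and 3) and to 20 with a mean of at least 200 (15 higher in A). The 4-fold setting kept the 111 genes and asked for a larger difference, while fewer genes entered at -0.8 and at a mean of 200. At -0.5, 13 were higher in B, against 33 in A. The 7 neighbouring pairs became 13 at -0.5 and 21 within 20000 bases, a distance added once the data were known. The median log2 fold change was -0.28 by edgeR, against -0.27. The other 29 of 44 alternatives kept the result within 1.5 times. Equal arm totals would lower each log2 fold change by 0.17 and changed no direction of a named gene.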
